A study of Rattus norvegicus with 16 samples.

Results

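Genes of homologous recombination, the Fanconi anaemia pathway and the ATM and ATR checkpoints were followed in rat liver and bone marrow after dosing with N-nitrosodiethylamine (NDEA), a nitrosamine that is converted in the body to a DNA-alkylating agent. The set was a list of 35 gene names (11 recombination, 11 Fanconi and 13 checkpoint genes) looked up in the gene names of the count table. Of these, 34 were found among 32623 gene records, 33 by the name itself and claspin under its symbol Clspn, through the description beside it; it is called Claspn here. Chek1 was not matched and is not analysed here.

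The rats were females of the Big Blue strain, 6 weeks old on arrival, and all of them, controls included, carried the reporter genes cII and lacI on a transgenic vector. NDEA was given by gavage at 0 (control) or 10 mg/kg body weight per day for 28 days, and tissues were taken 3 days later. There were 4 libraries for each tissue and dose, 16 in all, made with a kit that reads the 3′ ends of polyadenylated RNA. The labels number the libraries but do not tie each to a rat, so the p-values measure the spread between these libraries, which may in part be technical.

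Library totals were 5000844 to 6863592 counts in liver and 2162182 to 5705705 in marrow. Levels are given as CPM, counts per 1000000 counts of the tested genes in a library, after trimmed-mean scaling within each tissue. The tissue labels fitted their markers. The 10 hepatocyte markers summed to 117000 to 154000 CPM in liver libraries and 853 to 1800 in marrow libraries. The 18 marrow and blood cell markers summed to 21700 to 36800 CPM in marrow and 184 to 565 in liver. In liver the neutrophil granule genes Mpo, Elane and Prtn3 had 0 counts, while S100a8 and S100a9 averaged 6.61 and 3.13 CPM in control libraries. In bulk tissue, fewer cells of a type and less RNA per cell cannot be told apart.

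Recombination repairs broken DNA ends by copying an intact sister strand. BRCA1, PALB2 and BRCA2 prepare the broken end for the search for that template, XRCC2, XRCC3 and RAD51AP1 assist, RAD54L opens the template and the helicase BLM takes the joined strands apart. The Fanconi pathway unhooks strands that are chemically cross-linked: a core complex that includes FANCA, FANCB and FANCL attaches ubiquitin to the pair FANCD2 and FANCI. ATM and ATR are the kinases that sense DNA damage and stalled replication, and their signal passes through CHEK2, claspin and TOPBP1 to the control of mitosis, which WEE1 holds back. Many of these genes are transcribed mainly in cells that copy their DNA, and most hepatocytes of an adult liver do not divide.

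In liver, Fancb and Wee1 were called higher with NDEA and no tested gene of the set was called lower. A gene was tested when at least 4 libraries reached the CPM that 10 counts make in the median library, which was 1.64 CPM in liver; 19 of the 34 genes passed. Of these 19, 2 were called higher and 0 lower (limma-voom, Benjamini-Hochberg adjusted p under 0.05 over all 9668 genes), which is 10.5%, beside 6.61% of all genes tested (2.87% higher and 3.74% lower). With library totals alone in place of the trimmed-mean scaling, the higher share of all calls went from 43.3% to 62% and the median log2 change of all genes from 0.01 to 0.12; the same 2 genes were called. At an unadjusted limma-voom p under 0.05 there were 4 of the 19, 21.1% beside 18.7% of all genes. The estimate was above 0 for 15 of the 19 genes, with a median log2 fold change of 0.48 beside 0.01 over all genes. That median is the same when Fancb, at 0 in every control library, is set at the value that 3 control counts would give. Control and NDEA libraries did not overlap for 3 of the 19 (Fancb, Wee1 and Brca2, all higher with NDEA), beside 12.5% of all genes (6.54% higher and 5.98% lower). Fancb passed the filter only through its NDEA libraries, and 7 of the 19 genes had fewer than 4 control libraries past the filter, so the counts over tested genes lean towards genes that were higher with NDEA. Of the 15 untested genes, 5 had no count in any liver library.

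Fancb, a core complex subunit encoded on chromosome X, had 0 counts in each of the 4 control liver libraries and 14, 22, 25 and 24 counts in the NDEA libraries. Every NDEA library was therefore above every control library. The mean with NDEA was 3.36 ± 0.86 CPM (SD, n = 4), and the limma-voom adjusted p was 0.0238. The pooled NDEA level was 25.5-fold above the 3 counts that 0 counts over the control group allow. That figure covers counting error in the controls only, not the spread between libraries. The fitted log2 interval, which depends on the count added to the control values of 0, was 2.33 to 8.17. The call was lost without any 1 of the 4 control libraries (limma-voom adjusted p between 0.0832 and 0.101) and without NDEA library 2 (0.0599) or 4 (0.0587).

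The ubiquitin target pair of the pathway lay below the filter in control liver. Fanci had 1, 0, 0 and 0 counts in control libraries and 9, 39, 10 and 54 with NDEA. The groups did not overlap; the ratio of the summed counts, each divided by its group's scaled depth, was 101, with a 95% counting interval of 17.8 to 4030, which covers counting error only. Its partner Fancd2 had 0 counts in 7 of 8 liver libraries and 6 counts in NDEA library 4. With no filter its log2 estimate was 0.77 (SE 1.00, 95% interval -1.33 to 2.86, limma-voom adjusted p = 0.76). Fanci was tested in the fit with no filter on low counts, where the limma-voom adjusted p was 0.00206, and in a fit of all 16 libraries (0.00489).

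Among the other Fanconi genes, Fanca had 6, 0, 0 and 0 counts in control liver and 0, 15, 9 and 0 with NDEA, too few to be tested. Estimates for Fance, Fancl and Fancm, subunits and the anchoring translocase of the core complex, lay between 0.44 and 0.76 on the log2 scale, with limma-voom adjusted p-values of 0.54, 0.856 and 0.425. Fancc went the other way in counts, with 22, 0, 7 and 0 in control libraries and 0, 0, 0 and 1 with NDEA, and was not tested. Brip1, a helicase that binds BRCA1, was above 2 counts in control library 3 (16 counts) and NDEA library 4 (30 counts) alone. Fancf and Fancg had 0 counts in all 16 libraries, as had the recombination genes Rad51b and Xrcc3. These are counts as assigned in the deposited table, so no level is drawn from a 0 in every library.

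**Figure D1:**
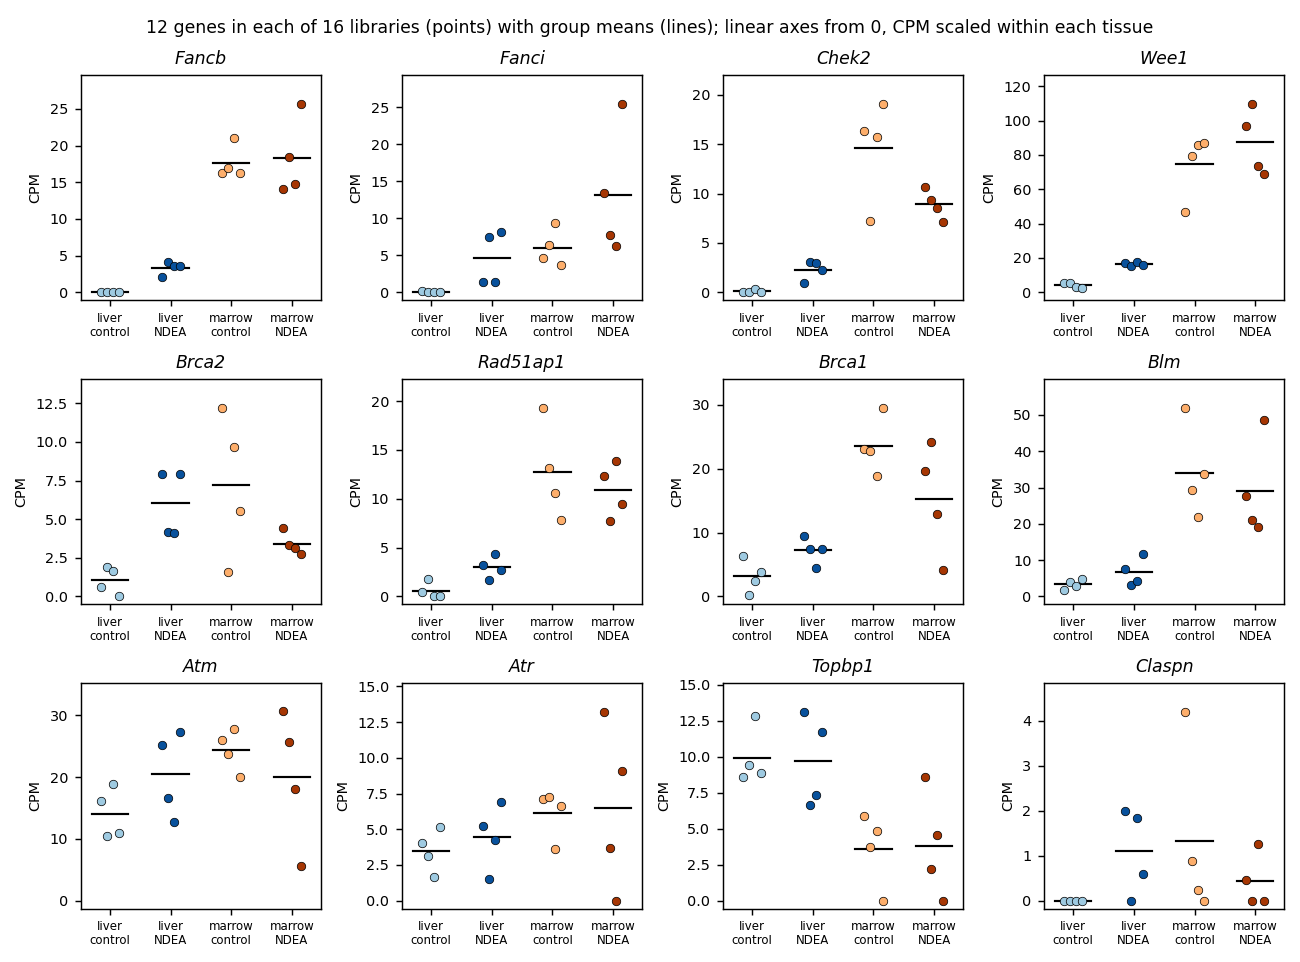
Each panel plots 1 gene in CPM on a linear axis from 0, with a point for each of the 4 libraries of a group and a line at the group mean. Fancb is at 0 in the control liver libraries and at 2.14 to 4.18 CPM with NDEA, and Wee1 moves from 2.58 to 5.43 CPM to 15 to 17.4 CPM, while the marrow groups of both genes overlap.

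None of the recombination genes was called in liver. The largest estimates were for Rad51ap1 and Brca2. Of the 6 genes tested in this group, 5 had estimates above 0, with a median log2 fold change of 1.67 beside 0.01 over all genes. Brca1, Brca2, Palb2 and Rad51ap1 did not reach the filter in every control library, so this count and median lean towards genes higher with NDEA. Blm and Rad51d, which reached it in all 8 liver libraries, had estimates of 0.96 and -0.27. Brca2, which acts with PALB2 at broken ends, had 4, 11, 9 and 0 counts in control libraries and 52, 22, 29 and 53 with NDEA. The groups did not overlap, with 1.04 ± 0.89 and 6.04 ± 2.2 CPM (SD, n = 4 each), yet the estimate of 3.07 (SE 1.26) had a limma-voom adjusted p of 0.175. Rad51ap1 had 3, 10, 0 and 0 counts against 21, 9, 31 and 18, with groups that overlapped in CPM and a limma-voom adjusted p of 0.223. In the fit of all 16 libraries, which shares 1 estimate of the spread over both tissues, both genes were called in liver, with limma-voom adjusted p-values of 0.0443 for Brca2 and 0.0425 for Rad51ap1.

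Brca1 had 40, 1, 13 and 21 counts in control liver and 62, 39, 32 and 50 with NDEA. Control library 1 lay inside the NDEA range, and the estimate of 1.76 (95% interval -0.04 to 3.57) was not called. Palb2, which bridges BRCA1 and BRCA2, had 2, 0, 1 and 33 counts in control libraries and 22, 0, 14 and 23 with NDEA, so that 1 control library held nearly all control counts and the interval ran from -2.13 to 5.27. Blm had 12, 22, 16 and 26 counts against 49, 16, 31 and 79, with overlapping groups and an interval of -0.47 to 2.38.

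Rad51d had the estimate closest to 0 of the 6 recombination genes tested in liver. Its counts were 84, 56, 84 and 50 in control libraries and 44, 54, 117 and 49 with NDEA, with a log2 interval of -1.09 to 0.55. Of the untested members, Rad51c summed to 11 counts in control and 16 in NDEA libraries and Xrcc2 to 24 and 77, of which NDEA library 2 held 50. Rad54l had 14 control counts and 52 with NDEA, 45 of them in NDEA library 1.

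Wee1, the kinase that keeps CDK1 inactive, was the only checkpoint gene called in liver. It had 34, 31, 17 and 14 counts in control libraries and 112, 79, 124 and 106 with NDEA. All NDEA libraries exceeded all control libraries, with means of 4.1 ± 1.48 and 16.4 ± 1.13 CPM (SD, n = 4 each). The fold change was 4.06, or 2.02 on the log2 scale (SE 0.51, limma-voom adjusted p = 0.0153). The call was lost only without control library 3, at a limma-voom adjusted p of 0.0577; over the 16 alternatives that tested Wee1, the adjusted p ranged from 0.00444 to 0.0577.

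Chek2, the kinase that ATM activates, was below the filter in liver with 0, 0, 2 and 0 control counts and 6, 16, 21 and 15 counts with NDEA. The groups did not overlap, and the ratio of summed counts, scaled for depth in the same way, was 26.2 with a 95% counting interval of 6.92 to 221. With no filter, its limma-voom adjusted p was 0.0106, and in the fit of all 16 libraries 0.0109. Claspn, the adaptor through which ATR activates its effector kinase, had 0 counts in all control liver libraries and 13, 0, 13 and 4 with NDEA. The pooled NDEA level was 9.0-fold the control floor of 3 counts, with NDEA library 2 at the control level. That figure covers counting error in the controls only. With no filter its log2 interval was 0.76 to 5.30, with a limma-voom adjusted p of 0.135.

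The sensing kinases and their partners were present in every control liver library, and none of them was called. Atm had 103, 60, 105 and 59 counts in control libraries and 165, 88, 90 and 182 with NDEA (log2 interval -0.20 to 1.22). Atr had 26, 18, 9 and 28 against 34, 8, 30 and 46 (interval -1.16 to 1.85). Topbp1, which activates ATR, had 55, 54, 71 and 48 against 86, 35, 52 and 78 (interval -0.87 to 0.78). In each of the 3 genes the groups overlapped. The other checkpoint genes tested were Rad50 and Nbn of the complex that binds broken ends, Atrip, the partner of ATR, and Rad1 and Hus1 of the sliding clamp. Their estimates lay between -0.56 and 0.42, and the smallest limma-voom adjusted p among them was 0.379 (Rad50). The third clamp gene, Rad9a, had 0 counts in all liver libraries and 5 counts in 1 marrow library.

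**Figure D2:**
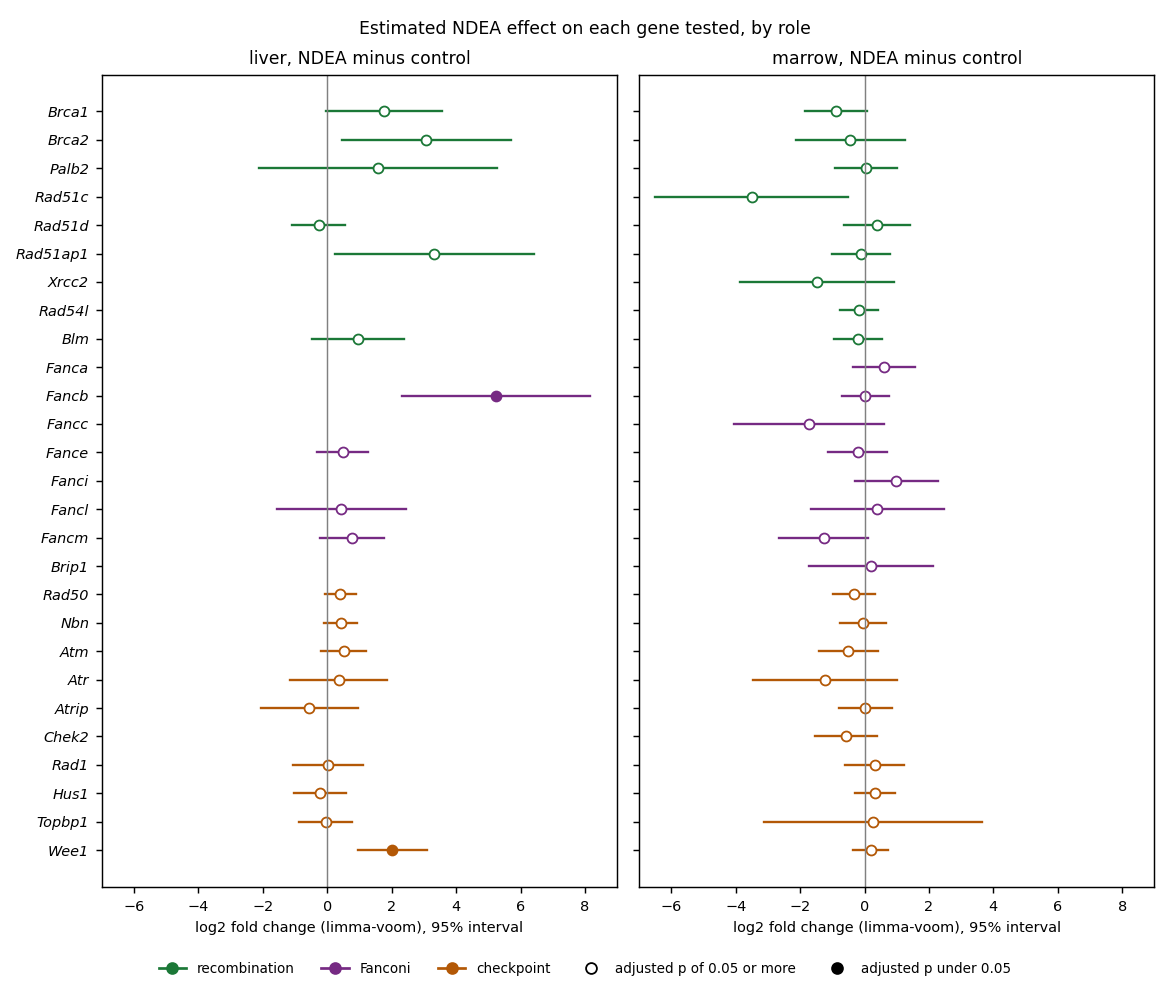
For each gene tested, the point is the limma-voom log2 fold change (NDEA minus control) and the line its 95% interval, in liver (left) and marrow (right), coloured by role. Fancb and Wee1 in liver are the filled points, with adjusted p under 0.05; the fitted value of Fancb depends on the count added to its control values of 0 and is no bound.

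In marrow, no gene of the set was called. Of the 27 tested, 0 had an adjusted p under 0.05 with limma-voom or with limma-trend, beside 0% of all 9239 genes tested. At an unadjusted p under 0.05 there was 1 of the 27, Rad51c, beside 14.5% of all genes. The median log2 fold change was -0.11, beside -0.10 over all genes, and 12 of 27 estimates were above 0. Rad51c measured 4.61, 5.99, 5.56 and 11.1 CPM in control marrow and 0, 1.17, 8.94 and 0 CPM with NDEA. The libraries of the groups overlapped through NDEA library 3, and the estimate of -3.51 (SE 1.43) had a limma-voom adjusted p of 0.286.

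Fanca was the only gene of the set whose marrow groups did not overlap, beside 5.6% of all genes (2.57% higher and 3.03% lower). It measured 5.87, 7.76, 7.01 and 9.47 CPM in control marrow and 16, 11.4, 11.6 and 10.1 CPM with NDEA. The lowest NDEA library was 10.1 and the highest control library 9.47, and the estimate of 0.60 (interval -0.35 to 1.56) had a limma-voom adjusted p of 0.525.

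The genes called in liver were not called in marrow. Fancb measured 16.3, 16.9, 21 and 16.3 CPM in control marrow and 14.1, 18.4, 14.8 and 25.7 CPM with NDEA (log2 interval -0.71 to 0.77). Wee1 measured 46.5, 79.5, 85.6 and 87.2 CPM against 96.9, 110, 73.4 and 69 CPM (interval -0.35 to 0.74). For both, a fold change as large as that in liver lay outside the interval.

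Chek2 measured 16.3, 7.23, 15.7 and 19.1 CPM in control marrow and 10.7, 9.39, 8.52 and 7.12 CPM with NDEA. Brca1 measured 23, 22.7, 18.9 and 29.5 CPM against 19.7, 24.2, 12.9 and 4.15 CPM, and Brca2 12.2, 1.59, 9.67 and 5.54 CPM against 4.4, 3.35, 3.12 and 2.77 CPM. The groups overlapped in each of these genes, and the estimates ran from -0.88 to -0.44.

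Palb2 measured 10.1, 7.76, 12.6 and 15.6 CPM in control marrow and 22, 12.2, 6.65 and 10.3 CPM with NDEA. Blm, the helicase, measured 52, 29.3, 21.8 and 33.6 CPM against 27.6, 21.1, 19.1 and 48.6 CPM. Atm measured 26, 23.8, 27.8 and 20 CPM against 30.8, 25.7, 18.1 and 5.54 CPM. Of the NDEA libraries, library 4 was lowest for Brca1 and Atm and highest for Blm.

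Some genes were at 0 in single marrow libraries. Atr measured 7.12, 7.23, 3.63 and 6.61 CPM in control marrow and 13.2, 3.69, 0 and 9.09 CPM with NDEA, and Topbp1 5.87, 3.7, 4.83 and 0 CPM against 8.57, 2.18, 4.57 and 0 CPM. Their intervals, -3.46 to 1.01 for Atr and -3.11 to 3.64 for Topbp1, cover large changes in either direction. Fancd2 (10, 3, 1 and 7 counts against 0, 4, 14 and 0) and Claspn (10, 5, 1 and 0 against 2, 0, 6 and 0) were too low to be tested. Marrow NDEA libraries 3 and 4 detected the fewest genes of all (10144 and 9101, beside 10920 to 11699 in the other marrow libraries); without both, again 0 members were called. Without marrow control library 3, 318 of all genes were called and 0 members. The 8 skeletal muscle markers summed to 170 to 579 CPM in control marrow and 60.9 to 81.7 CPM in NDEA marrow, and the part of that difference in the values above was not tested.

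A direct test of the difference between tissues, the treatment-by-tissue term over all 16 libraries, called Fancb and Chek2 of 27 genes tested, both with a larger NDEA effect in liver, beside 2.28% of all 11261 genes (2.07% larger in liver and 0.213% larger in marrow). For Chek2 the fitted liver effect exceeded the marrow effect by 4.68 on the log2 scale (SE 1.05, limma-voom adjusted p = 0.0181). This size, like that for Fancb, depends on the count added to control liver libraries at 0 counts. The call was lost without liver control library 1, 2 or 4, at limma-voom adjusted p-values of 0.0535, 0.0515 and 0.0672. For Fancb the fitted difference was 5.26 (SE 0.85, limma-voom adjusted p = 0.00253); it was called in each of the 23 alternatives run, with adjusted p-values from 8.27e-05 to 0.0193.

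The other genes with a large liver estimate did not pass the threshold in this term. It was 1.90 for Wee1 (interval 0.65 to 3.16, limma-voom adjusted p = 0.106), 3.68 for Brca2 (adjusted p = 0.109), 3.46 for Rad51ap1 (0.0849) and 3.89 for Fanci (0.0896). Of 23 alternative fits, Fanci was called in 3 and Wee1, Brca2 and Rad51ap1 in 1 each. Fanci was called with quality weights (limma-voom adjusted p = 0.034), with no filter (0.0438) and with a replicate block (0.043). Here the block paired liver and marrow libraries of the same treatment and number, which the labels do not tie to a rat. Wee1 was called with limma-trend (limma-trend adjusted p = 0.0271). Brca2 was called without marrow control library 2 (limma-voom adjusted p = 0.0483) and Rad51ap1 without liver control library 2 (0.0452). The median over the 27 genes was 1.16, beside 0.32 over all genes; other scalings moved the latter from 0.19 to 0.40 and the former from 1.07 to 1.23. At an unadjusted p under 0.05 there were 10 of 27, beside 16.8% of all genes.

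Without NDEA, most genes of the set were lower in liver than in marrow. Between the control libraries of the tissues, scaled together, 16 of 27 genes tested were called lower in liver and Topbp1 was called higher, which is 63% called, beside 66.1% of all 10071 genes tested (33.4% lower and 32.8% higher). The median log2 difference was -3.03, beside -0.02 over all genes. With library totals alone these were -3.34 and -0.34. That scaling called 18 of the 27 genes lower, beside 3903 of all 10071 genes. The main fit called 3359 of all genes lower.

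The lower genes were found in all 3 roles. They were 8 of 9 recombination genes tested, 5 of 8 Fanconi genes and 3 of 10 checkpoint genes (Atrip, Chek2 and Wee1). Rad54l, the motor protein that opens the template, measured 0, 0.761, 1.56 and 0.4 CPM in control liver and 31.7, 43.3, 74.9 and 48.6 CPM in control marrow, a log2 difference of -6.64 (SE 0.85, limma-voom adjusted p = 5.38e-06), and of -5.76 without liver control library 1, which is at 0. Wee1 measured 2.8 to 5.89 CPM in liver and 41.3 to 78.4 CPM in marrow, a difference of -3.96 (SE 0.48, limma-voom adjusted p = 3.28e-06). Fancb, at 0 in control liver, measured 14.5, 15.3, 19.3 and 14.6 CPM in control marrow. Pooled, that was 113-fold above the liver floor of 3 counts over the group, a figure that covers counting error in liver only.

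The genes that did not differ between control tissues at the threshold were mainly the sensors. Rad50, Nbn, Atm, Atr, Rad1 and Hus1 had estimates from -0.62 to -0.06 with standard errors of 0.26 to 0.58, and Rad51d, Fance, Fancl and Fancm were not called either. Topbp1 measured 9.22, 10.3, 13.8 and 9.6 CPM in control liver and 5.21, 3.34, 4.43 and 0 CPM in control marrow. All liver libraries were above all marrow libraries, by 2.89 on the log2 scale (SE 0.92, limma-voom adjusted p = 0.0118). The difference was 1.35 without marrow control library 4, which is at 0, and 3.49 without marrow control library 3; it was called in both.

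**Figure D3:**
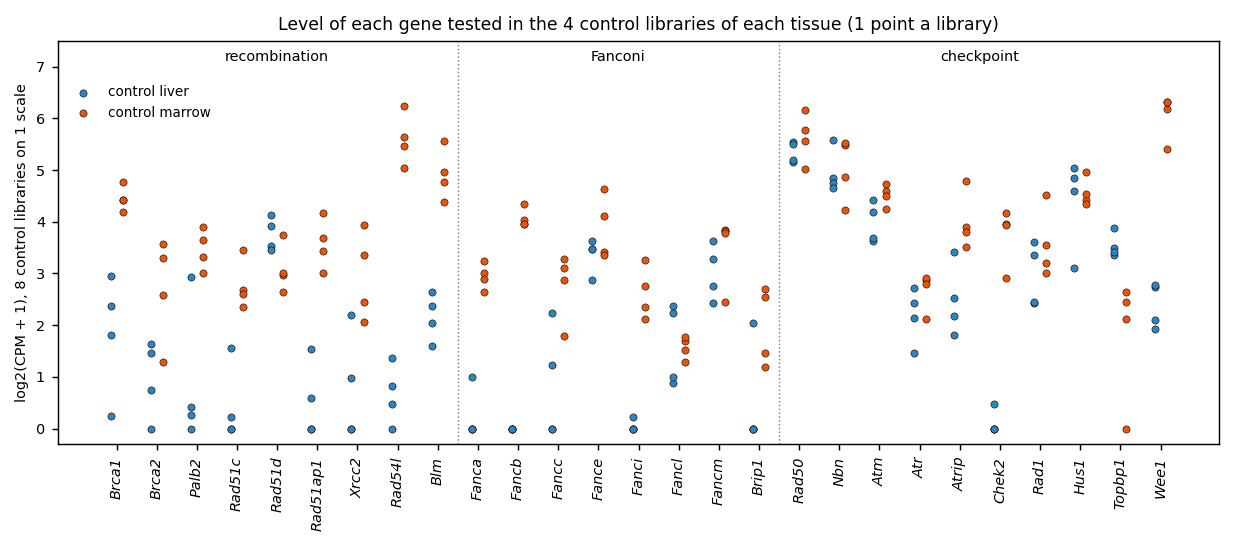
Points are the 4 control libraries of liver (blue) and of marrow (orange) for each of the 27 genes tested, as log2(CPM + 1) on the scale of the 8 control libraries, ordered by role. The recombination and Fanconi genes are mostly lower in liver, the sensors Rad50, Nbn, Atm, Atr, Rad1 and Hus1 lie at overlapping levels, and Topbp1 is higher in liver.

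Promoter letters were read in RefSeq windows of build GRCr8, 250 bases before to 50 bases after the start of a gene. Windows were found for 29 of the 34 genes; there was none for Wee1, Chek2, Blm, Nbn and Xrcc2. On either strand, an E2F motif (TTTGGCGC, TTTCCCGC, TTTGCCGC or TTTCGCGC) stood in 7 of the 29 windows, 24.1%, beside 2.25% of all 27457 windows. These were the windows of Fancd2, Claspn, Atm, Topbp1, Rad51d, Fancl and Fancc. Between control tissues, Fancc of these was called lower in liver and Topbp1 higher. Atm, Rad51d and Fancl were not called, and Fancd2 and Claspn were not tested. The CCAAT box (CCAAT) stood in 14, 48.3% beside 37.7%, and the cell cycle element CHR (TTTGAA or TTTAAA) in 8, 27.6% beside 27.9%. A spacerless p53 response element stood in 0 of all windows. The windows are not independent of how the genes were listed, and a match is a description of letters.

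The 100 bases before the start are shown for 3 genes with large liver estimates (Fancb, Brca2, Rad51ap1) and 3 genes with an E2F motif in that stretch (Topbp1, Rad51d, Fancc). Capitals mark motif letters, on either strand; in Topbp1 a motif on each strand overlaps the other. They lie at chrX:33049900-33049999 (minus strand) for Fancb, chr12:4895347-4895446 (plus) for Brca2, chr4:161458560-161458659 (minus) for Rad51ap1, chr8:112766691-112766790 (plus) for Topbp1, chr10:68321903-68322002 (minus) for Rad51d and chr17:1686989-1687088 (plus) for Fancc.
Fancb: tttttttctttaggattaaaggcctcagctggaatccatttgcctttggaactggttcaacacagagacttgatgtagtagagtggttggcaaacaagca
Brca2: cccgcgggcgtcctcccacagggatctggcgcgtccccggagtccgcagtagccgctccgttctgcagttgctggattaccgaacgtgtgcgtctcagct
Rad51ap1: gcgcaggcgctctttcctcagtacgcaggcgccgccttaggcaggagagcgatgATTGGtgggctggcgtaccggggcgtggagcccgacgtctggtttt
Topbp1: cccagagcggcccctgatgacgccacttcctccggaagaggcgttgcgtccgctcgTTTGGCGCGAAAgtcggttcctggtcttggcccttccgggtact
Rad51d: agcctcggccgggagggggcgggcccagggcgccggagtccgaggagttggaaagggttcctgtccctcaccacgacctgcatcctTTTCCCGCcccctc
Fancc: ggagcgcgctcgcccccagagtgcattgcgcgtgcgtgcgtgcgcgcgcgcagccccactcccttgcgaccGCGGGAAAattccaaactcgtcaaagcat
The stretches of Fancb and Brca2 hold none of the motifs searched, and that of Rad51ap1 holds a CCAAT box on the minus strand. Of the 3 genes shown with an E2F motif, Topbp1 and Rad51d were tested in liver and neither was called with NDEA.

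Of a list of 70 other genes of these and neighbouring repair pathways, 54 were tested in liver, of which 2 were called higher and 1 lower, 5.56% beside 6.61% of all genes. H2ax, the histone phosphorylated at broken ends (listed as H2afx), rose from 6.16 ± 3.08 to 15.8 ± 1.43 CPM (log2 1.49, SE 0.45, limma-voom adjusted p = 0.0472). Rfc3, a subunit of the loader of the replication clamp, rose from 7.62 ± 4.24 to 20.3 ± 6.61 CPM (log2 1.56, adjusted p = 0.0408). Slx1b, a subunit of a structure-specific nuclease, fell from 19.5 ± 4.1 to 8.12 ± 4.35 CPM (log2 -1.38, adjusted p = 0.0454; SD, n = 4 in each group).

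In marrow 0 of 59 were called, beside 0% of all genes. The tissue term called 2 of 63, 3.17% beside 2.28% of all genes (2.07% larger in liver). They were Rad18, a ubiquitin ligase of damage tolerance (3.73, limma-voom adjusted p = 0.0393), and Pkmyt1, a kinase related to WEE1 (4.65, adjusted p = 0.0136), both with a larger effect in liver. Between control tissues 34 of 60 were lower in liver and 4 higher, 63.3% beside 66.1% of all genes (33.4% lower and 32.8% higher). Mre11 (listed as Mre11a), the nuclease that works with RAD50 and NBN, had a liver estimate of -0.45 (interval -1.13 to 0.24) and a marrow estimate of 0.50 (-0.05 to 1.05).

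Markers of cycling cells moved in the same comparison. In liver, 17 of 31 tested of the 37 cycling cell markers were called higher and 0 lower, 54.8% beside 6.61% of all genes (2.87% higher). In marrow 0 of 36 were called, beside 0% of all genes. Their summed level was 56.4 to 201 CPM in control liver, 596 to 846 CPM with NDEA, 4470 to 5130 CPM in control marrow and 5060 to 5460 CPM in NDEA marrow. Of the 37, 20 to 30 had a count in each control liver library and 34 to 37 in each NDEA liver library. The proliferation antigen Mki67 rose in liver from 4.04 ± 0.95 to 36.5 ± 9.07 CPM (SD, n = 4 each, limma-voom adjusted p = 0.000356), Top2a by 4.29 on the log2 scale (adjusted p = 0.00127) and Cdk1, the target of WEE1, by 4.19 (adjusted p = 0.0228). The replication clamp gene Pcna had an estimate of 0.97 (adjusted p = 0.0536).

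Target genes of p53 moved there as well. Of the 22 targets, 8 of 19 tested were called higher in liver and 0 lower, 42.1% beside 6.61% of all genes (2.87% higher). Their summed levels were 332 to 438 CPM in control and 936 to 1210 CPM in NDEA libraries. The cell cycle inhibitor Cdkn1a rose from 23.5 ± 16.7 to 327 ± 47.9 CPM (limma-voom adjusted p = 2.58e-09) and Mdm2, the ligase that degrades p53, from 19.2 ± 5.76 to 64.4 ± 9.83 CPM (adjusted p = 4.74e-05). In marrow 0 of 15 were called, beside 0% of all genes.

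The 34 genes summed to 159 to 203 CPM in control liver and 227 to 264 CPM in NDEA liver, and 17 to 23 of them had a count in each control liver library against 25 to 28 in each NDEA liver library. In marrow the sums were 496 to 539 CPM in control and 449 to 542 CPM in NDEA libraries. Of the 18 marrow and blood cell markers, 4 were tested in liver, 1 with an estimate above 0 and 3 below (median log2 -0.585). The 1 above 0, Ptprc, was called higher with NDEA (log2 1.04, limma-voom adjusted p = 0.0326). S100a8, S100a9 and Hbb had estimates of -1.21, -1.16 and -0.01 and were not called. The 18 markers summed to 184 to 392 CPM in control liver and 185 to 565 CPM with NDEA. Most of this was Hbb, with means of 243 and 260 CPM. Mitochondrial genes held 16.21% to 20.58% of the counts in control liver libraries and 20.09% to 22.36% in NDEA ones. The part of cycling cells, blood cells or RNA quality in the values of Fancb, Wee1 and the other genes was not tested.

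**Figure D4:**
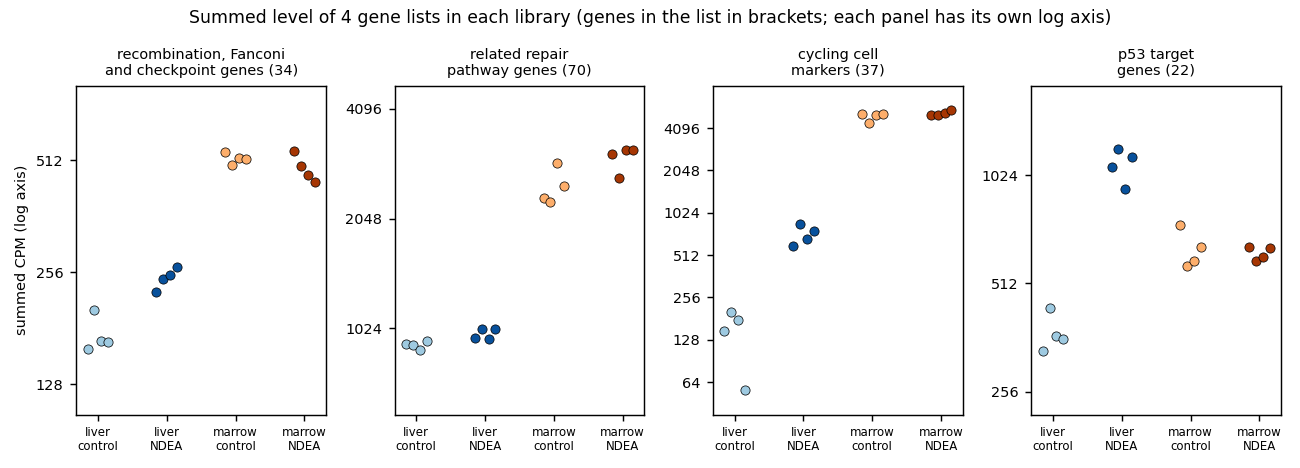
Each point is the summed CPM of a gene list in 1 library, on a log axis of its own for each panel, by tissue and treatment. In liver the sums of each list were higher in every NDEA library than in every control library. For the related repair pathway genes they were 890 to 942 CPM in control and 957 to 1020 CPM in NDEA libraries. In marrow the sums of each list overlap.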

How the data were processed

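The authors deposited 1 table of raw read counts per gene for the 16 libraries; per the labels' protocols these were QuantSeq 3′ libraries. STAR and DESeq2 are named in the submitters' processing notes; which tool counted the reads, on which genome build and annotation and with or without molecular identifiers, is not given in the sources used here, and reads are not known to be independent molecules. The table had 32635 lines, of which 15591 were quoted, and 12 records ran over a line break. Rejoined, it gave 32623 gene records of whole counts. Group totals could be read in 16313 of these records and matched in all of them. The other records could not be checked in this way. Since a plain reading of the lines gives values that are not counts, no count model was run on the rejoined values.

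Scaling factors (trimmed mean of M values, trims of 0.3 and 0.05) and tests (limma-voom, limma 3.58.1 in R 4.3.3) were computed separately for liver, for marrow, for the 8 control libraries and, for the treatment-by-tissue term, for all 16. Genes with 10 counts' worth of CPM in at least 4 libraries and 15 counts in all were tested, with Benjamini-Hochberg adjustment over all of them; log2 values include the 0.5 counts that voom adds. Fits were tested on simulated data. The members and lists were chosen with earlier results of these data known. Values of every library are given for genes called with NDEA, genes whose groups do not overlap and a fixed set of members. Promoter windows are RefSeq's (GRCr8).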

Additional observations from a re-analysis of the deposited data

Results flagged for a closer look

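Of 92 groups of 4 libraries looked at (each tested gene in each group), 6 held a library far from the other 3, where chance flags about 1 in 20. Palb2 measured 6.08 CPM in liver control library 4 and 0 to 0.312 in the other control liver libraries. Marrow control library 3 stood apart 3 times, at 21 CPM for Fancb (16.3 to 16.9 in the others), 4.83 CPM for Fancm (14.3 to 15.1) and 3.63 CPM for Atr (6.61 to 7.23). Marrow NDEA library 3 stood apart for Rad51c at 8.94 CPM (0 to 1.17 in the others) and for Rad1 at 7.9 CPM (15 to 16.1).

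In the treatment-by-tissue term the NDEA effect was larger in liver for Fancb, by 5.26 on the log2 scale, and for Chek2, by 4.68. Both fitted values depend on the count added to control liver libraries at 0 counts, which were 4 of 4 for Fancb and 3 of 4 for Chek2. Over 23 alternatives they ranged from 3.44 to 5.46 for Fancb and from 3.25 to 5.22 for Chek2.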

How the results depend on the processing

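Wee1 and Fancb kept a higher estimate in liver in all alternatives that tested them. Under limma-trend, quality weights, both other scalings and the replicate block, 2 of 19 members were called, beside 6.47% to 8.86% of all genes. In liver, 4 of 29 tested members were called with no filter (Fanci and Chek2 joined), beside 5.08% of all genes. A filter at 5 CPM gave 1 of 11 (Wee1), beside 7.98%. The fit of all 16 libraries gave 6 of 27, beside 4.54%. With a library left out, 0 to 2 members were called, beside 4.34% to 5.97% of all genes. In marrow no member was called under any alternative; of all genes, 2 were called with no filter, 69 in the fit of all 16 libraries, 251 with the replicate number as a block, and 0 to 318 with a library left out (318 without control library 3). In the tissue term, leaving out a library gave 1 to 3 members and 102 to 509 genes (102 without liver control library 4, 509 without marrow control library 3). Same-numbered libraries did not deviate together (correlations of -0.03 to 0.06 over tested genes, and not every library correlated best with its own number). NDEA liver was not compared with NDEA marrow in this way. Yet the block raised the calls over all genes, in liver from 277 higher and 362 lower to 395 and 462, and in marrow from 0 to 251. What the numbers stand for was not tested. The block changed no member's call in liver or marrow. In the tissue term, where the block paired same-numbered libraries of a treatment, 3 of 27 members were called (Fanci joined), beside 2.02% of all genes. Between control tissues, 15 of 27 were called lower in liver and 1 higher, beside 61.9% of all genes called in either direction. The edgeR and DESeq2 alternatives were not run, since the deposited lines, read plainly, could not be recorded as counts; the rejoined values are whole counts. The causes of these differences were not tested. Depth limits the low genes: 3 counts over the control liver group are 0.13 CPM.

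Changes of sign were found only in values that were called neither in the main setting nor in the alternative (90 values of 25 results, of 100). The log2 values that crossed 0 were, with library totals alone, 0.069 for Topbp1 in liver, -0.013 for Atrip in marrow and 0.063 for Topbp1 in the tissue term; with median-of-ratios scaling, -0.005 for Fancl in the tissue term; with limma-trend, -0.055 for Topbp1 in marrow, 0.002 for Topbp1 in the tissue term and 0.024 for Fancl between control tissues; with quality weights, -0.054 for Atrip and -0.067 for Fancb in marrow and 0.13 for Fancl between control tissues. In the fit of all 16 libraries, marrow values were -0.016 for Atrip, -0.007 for Fancb, -0.023 for Palb2 and -0.011 for Topbp1. With the replicate block they were 0.015 for Atr, -0.028 for Topbp1 and 0.15 for Xrcc2 in marrow, -0.092 for Fancl in the tissue term and 0.038 for Fancl between control tissues. Without marrow NDEA libraries 3 and 4 together, marrow values were 0.22 for Atm, 0.075 for Atr, -0.39 for Atrip, -0.10 for Fancb, -0.35 for Fancl, 0.054 for Nbn, -0.10 for Rad51d and 0.55 for Xrcc2.

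With each library left out in turn, values that crossed 0 ranged in liver from -0.66 to 0.016 for Hus1, -0.21 to 0.27 for Rad1 and -0.21 to 0.087 for Topbp1. In marrow they ranged from -0.76 to 0.016 for Atm, -1.89 to 0.23 for Atr, -0.18 to 0.26 for Atrip, -0.24 to 0.56 for Brip1, -0.15 to 0.12 for Fancb, -0.49 to 0.11 for Fance, -0.32 to 0.17 for Nbn, -0.23 to 0.29 for Palb2, -0.35 to 0.058 for Rad51ap1, -0.30 to 0.01 for Rad54l, -1.45 to 1.61 for Topbp1 and -2.53 to 0.10 for Xrcc2. In the tissue term they ranged from -0.65 to 1.83 for Brip1, -0.30 to 1.53 for Fanca, -1.89 to 0.62 for Fancc, -0.35 to 0.42 for Fancl and -1.46 to 1.47 for Topbp1, and between control tissues from -0.41 to 0.36 for Fancl, -0.44 to 0.24 for Hus1 and -0.32 to 0.16 for Nbn.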
